A study of Mus musculus with 2 samples.

Results

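The 10 genes described here are the mouse dual-specificity phosphatases Dusp1, Dusp2, Dusp3, Dusp4, Dusp5, Dusp6, Dusp7, Dusp10, Dusp16 and Dusp22, found by gene symbol. The rule used no measured value, but the list was drawn up with earlier results of these data known. All 10 were found among the 55536 genes of the gene table. The study sequenced total RNA, after removal of ribosomal RNA, from the nucleoplasmic fraction (the labels also call it the nuclear fraction) of primary macrophages grown from the bone marrow of C57BL/6J mice. It holds 2 libraries of 1 group. The cells had received 100 ng/ml lipid A, the Toll-like receptor 4 ligand of bacterial endotoxin, for 12 h, were then kept without it for 12 h, and then met the same dose of lipid A again for 90 min. Per the labels, replicate 1 started from more RNA (1 µg) than replicate 2 (500 ng). The labels number them as separate biological replicates but give both the same donor entry, so the spread between them may be technical. Since the labels use both names for the fraction, the levels and intron shares below may be those of the nucleoplasm or of the whole nucleus. Age and sex were not recorded. Cells without lipid A, or with a single exposure, were not analysed here, so no value below is an induction or a tolerance effect.

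MAP kinases (ERK, JNK and p38) are switched on when a threonine and a tyrosine in their activation loop are phosphorylated. Dual-specificity phosphatases of the MAP kinase phosphatase family remove both phosphates and so switch the kinases off. Several of the genes are themselves induced by MAP kinase signalling, which makes them negative feedback regulators, and in macrophages Dusp1 is known for limiting p38 and JNK signalling and cytokine production after Toll-like receptor stimulation. The 10 genes fall into 4 roles: nuclear, inducible phosphatases (Dusp1, Dusp2, Dusp4, Dusp5), cytoplasmic phosphatases directed at ERK (Dusp6, Dusp7), phosphatases directed at JNK and p38 (Dusp10, Dusp16), and small atypical enzymes that lack the MAP kinase-binding domain (Dusp3, Dusp22).

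What the 10 genes share in sequence is the active site, a histidine, the catalytic cysteine, 5 further residues and an arginine. A search of the longest annotated coding sequence of each gene found this pattern exactly 1 time in all 10. It is shown for the 5 genes whose transcripts are compared further on, because some of their transcripts keep it and others do not. The sequences come from the GENCODE M21 transcripts, and capitals mark the histidine, cysteine and arginine codons.
Dusp1: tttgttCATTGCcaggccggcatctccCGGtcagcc
Dusp2: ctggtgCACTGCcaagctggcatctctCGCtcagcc
Dusp16: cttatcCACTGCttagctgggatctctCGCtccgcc
Dusp3: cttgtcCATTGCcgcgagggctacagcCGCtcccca
Dusp22: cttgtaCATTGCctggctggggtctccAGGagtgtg
The cysteine was codon 258 of 367 in Dusp1, 261 of 318 in Dusp2, 244 of 660 in Dusp16, 149 of 210 in Dusp3 and 88 of 205 in Dusp22. Over the 24 bases from the histidine codon to the arginine codon, Dusp2 and Dusp16 were 87.5% identical and Dusp1 and Dusp4 91.7%. Dusp3 stood farthest from the other 9, at 45.8% to 66.7%.

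Levels are in TPM (transcript abundance scaled for length and depth), and so comparable between genes, from the deposited RSEM gene tables. Values are given for replicate 1 and then replicate 2, with mean ± SD (n = 2). A gene was counted as detected at 1 TPM or more in both libraries, which held for 8 of the 10 genes. Of all 21951 protein-coding genes, 38.7% met the same rule. Dusp2 and Dusp1 were the most abundant of the 10, and Dusp6 and Dusp10 were under the limit. Dusp5 lay just inside the limit (lower library 1.05 TPM) and Dusp6 just outside it (higher library 0.720 TPM). By kallisto, Dusp5 was at 0.446 and 1.21 TPM, and 7 genes met the limit.

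**Figure D1:**
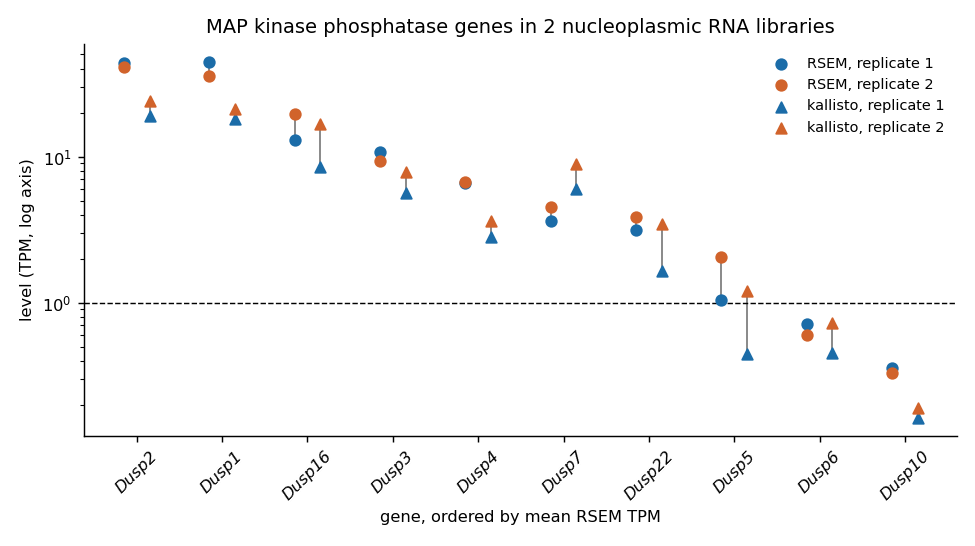
Level of each of the 10 genes in TPM on a log axis, with circles for RSEM and triangles for kallisto, blue for replicate 1 and orange for replicate 2, a grey line joining the replicates and a dashed line at 1 TPM. Dusp2 and Dusp1 lie highest at 35.7 to 44.5 RSEM TPM, and the kallisto values of Dusp7 lie above its RSEM values.

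Among the nuclear, inducible phosphatases, Dusp2 (ENSMUSG00000027368.6, chr2:127336159-127338376, plus strand, mm10), also known as PAC-1, was at 43.8 and 41.2 TPM (42.5 ± 1.85), from 2282 and 1052 reads (expected counts, as throughout). Dusp1 (ENSMUSG00000024190.7, chr17:26505590-26562128, minus strand), also known as MKP-1, was at 44.5 and 35.7 TPM (40.1 ± 6.22), from 3207 and 1260 reads. By RSEM replicate 1 was the higher library for both genes. By kallisto TPM replicate 2 was higher, at 19.0 and 23.9 for Dusp2 and 18.2 and 21.2 for Dusp1. That direction held for TPM only. By kallisto counts scaled by TMM, replicate 1 was higher for both genes. The log2 ratios of replicate 2 to replicate 1 were then −0.76 for Dusp2 and −0.94 for Dusp1. The RSEM ranges of the 2 genes overlapped, so their order was not separated by the spread. They ranked 771 and 826 among protein-coding genes, at the 96.5 and 96.2 percentile. Dusp4 (MKP-2, ENSMUSG00000031530.6, chr8:34807297-34819894, plus strand) was at 6.63 and 6.66 TPM (6.64 ± 0.0212). Dusp5, a nuclear phosphatase specific for ERK (ENSMUSG00000034765.6, chr19:53529109-53542431, plus strand), was at 1.05 and 2.04 TPM (1.54 ± 0.700) from 115 and 119 reads. The 4 genes of this role thus spread over a wide range: Dusp2 and Dusp1 were near the top of all protein-coding genes, and Dusp5 was at the 62.8 percentile. The 2 libraries of Dusp4 were nearly equal, whereas replicate 2 of Dusp5 was the higher one.

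The cytoplasmic, ERK-directed pair was lower. Dusp7 (MKP-X, ENSMUSG00000053716.9, chr9:106368632-106375724, plus strand) was at 3.61 and 4.54 TPM (4.08 ± 0.658). Dusp6 (MKP-3, ENSMUSG00000019960.8, chr10:99263231-99267489, plus strand) was at 0.720 and 0.600 TPM (0.660 ± 0.0849), from 72 and 37 reads. No library of Dusp6 reached 1 TPM, and both lay below both libraries of Dusp7.

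The phosphatases directed at JNK and p38 were far apart. Dusp16 (MKP-7, ENSMUSG00000030203.17, chr6:134715468-134792625, minus strand) was the third most abundant gene at 12.9 and 19.4 TPM (16.1 ± 4.61), from 2477 and 1910 reads. Dusp10 (MKP-5, ENSMUSG00000039384.8, chr1:184013302-184075636, plus strand) was the lowest of the 10 at 0.360 and 0.330 TPM (0.345 ± 0.0212), from 45 and 22 reads. Replicate 2 was higher for Dusp16, and the 2 genes' ranges did not approach each other. Both were above the counting floor of 3 reads. Of the atypical enzymes, Dusp3 (VHR, ENSMUSG00000003518.13, chr11:101971143-101987013, minus strand) was at 10.7 and 9.35 TPM (10 ± 0.962). Dusp22 (JKAP, ENSMUSG00000069255.13, chr13:30659999-30711231, plus strand) was at 3.16 and 3.88 TPM (3.52 ± 0.509). Dusp3 was above Dusp22 in both libraries.

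In order of mean TPM the genes ran Dusp2, Dusp1, Dusp16, Dusp3, Dusp4, Dusp7, Dusp22, Dusp5, Dusp6 and Dusp10. Of the 9 neighbouring pairs, the ranges of 2 overlapped: Dusp2 with Dusp1, and Dusp7 with Dusp22. The other pairs did not overlap, with 1.51-fold between the means of Dusp3 and Dusp4 at the narrowest and 2.49-fold between Dusp1 and Dusp16 at the widest. With 2 values each no exact test of such a pair can reach 0.05, so none is given. The deposited kallisto tables, a second quantification of the same reads, kept this order except that Dusp7 moved above Dusp3 and Dusp4.

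Dusp7 was also the 1 gene of the 10 whose quantifications differed by over 2-fold. With both rescaled to one total over coding genes and lncRNAs, the log2 ratio of kallisto to RSEM was 1.58 and 1.48 for Dusp7 in replicates 1 and 2. The median of the 10 genes was −0.17 and 0.02, and that of all 8506 detected protein-coding genes 0.04 and 0.13. Dusp7-202, an annotated processed transcript of 270 bases, had 4.35 and 5.78 kallisto TPM from 46 and 40.8 estimated reads, and was listed at 0 by RSEM. The main coding transcript, Dusp7-201, was at 3.25 and 3.18 RSEM TPM against 1.39 and 2.56 by kallisto. The position of Dusp7 among the 10 genes thus differed with how this short transcript was quantified.

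Between the libraries, none of the 10 genes differed by over 2-fold. The ratio of replicate 2 to replicate 1 was taken from expected counts scaled by TMM, over the 14831 genes with a mean count of 10 or more. Of these genes 13.4% passed 2-fold in either direction. With 1 library on each side there is no p-value, and the intervals given are exact 95% Clopper-Pearson intervals that cover counting error only. All 10 genes were tested, and 8 were lower in replicate 2, where 49.3% of all genes tested were lower. The median log2 ratio of the 10 was −0.31, against 0.01 for all genes tested and −0.09 for detected protein-coding genes.

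By TMM-scaled counts Dusp1 had the largest difference, a log2 ratio of −0.79 (interval −0.89 to −0.70), followed by Dusp5 at 0.60 (0.22 to 0.99) and Dusp2 at −0.56 (−0.67 to −0.45). Dusp5 was the largest by library totals (0.77, against −0.62 for Dusp1) and by TPM (0.90, against −0.32). Of these 3 nuclear phosphatases, 2 were lower in replicate 2 and 1 was higher. Dusp4 was at −0.35 (−0.52 to −0.18), Dusp7 at −0.27 (−0.49 to −0.05) and Dusp16 at 0.18 (0.10 to 0.27). For the remaining genes the interval included 0: Dusp3 at −0.09, Dusp22 at −0.18, Dusp6 at −0.40 and Dusp10 at −0.47. For Dusp6 and Dusp10 a 2-fold decrease in replicate 2 was inside the interval (−1.02 to 0.19 and −1.28 to 0.29), so it was not excluded at this depth.

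The sign of several ratios depended on the unit. By RSEM TPM the whole table shifted, with a median log2 ratio of 0.34 over the genes tested, and 84.9% of the genes past 2-fold were higher in replicate 2, against 56.2% by TMM-scaled counts and 72.5% by library totals. By TPM 5 of the 10 genes were higher and 5 lower, and their median log2 ratio was −0.04. In TPM, Dusp7 turned to 0.32, Dusp22 to 0.29 and Dusp4 to 0.01. The median of the 10 by library totals was −0.14. Relative to the median of all genes, 8 of the 10 lay below it by both units, and Dusp5 and Dusp16 lay above it.

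**Figure D2:**
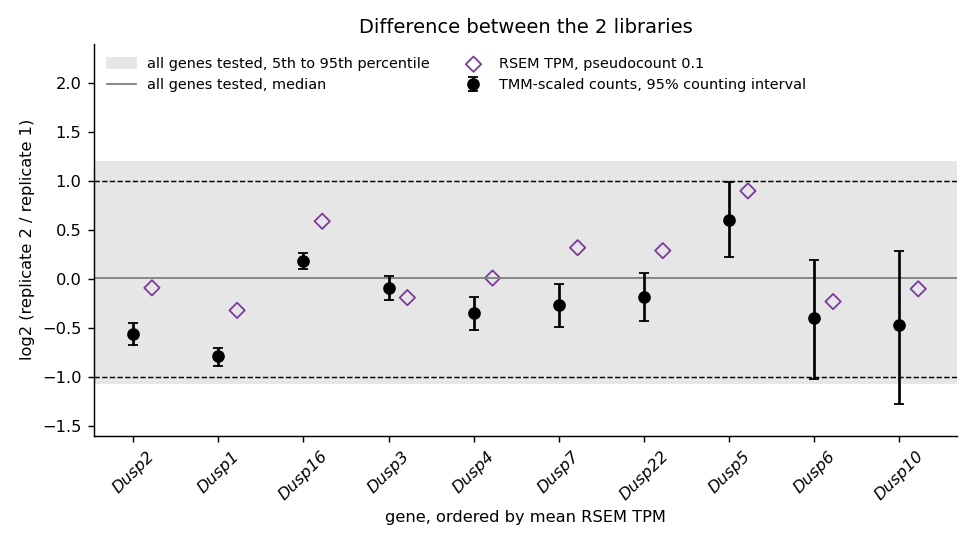
Log2 ratio of replicate 2 to replicate 1 for each gene, with black points and bars for TMM-scaled counts and their 95% counting interval, open diamonds for RSEM TPM, a grey band for the 5th to 95th percentile of all genes tested (−1.06 to 1.19), a grey line at their median and dashed lines at 2-fold. All 10 black points lie inside the dashed lines, from −0.79 for Dusp1 to 0.60 for Dusp5.

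The transcript tables split the 10 genes into 39 annotated transcripts, of which RSEM listed 11 at 0 in both libraries. Dusp4 and Dusp5 have a single annotated transcript each. Retained-intron transcripts, in which an intron is left inside the RNA, are annotated for 3 of the 10 genes: Dusp1, Dusp2 and Dusp16. The introns of the Dusp1 and Dusp2 transcripts are shown because these transcripts carried much of both genes' TPM. Exon bases are in capitals and intron bases in lower case, with the start (donor) and end (acceptor) of each intron on the gene's strand.
Dusp1-203 donor, chr17:26507205-26507573, minus strand: CTACGATCAGgttagtaggagtccgggtcc
Dusp1-203 acceptor: gactgtttttttgacttcagGGGGGCCCAG
Dusp1-204 donor, chr17:26506651-26506984, minus strand: GACTTCATAGgtaaatggaataactatctg
Dusp1-204 acceptor: cccataactttattttccagACTCCATCAA
Dusp2-202 donor, chr2:127336899-127337248, plus strand: CTATGACCAGgtgagttgatattcgaattt
Dusp2-202 acceptor: ccgtccccttcctcctccagGGTGGTCCTG
The coordinates are those of the introns, which are 369, 334 and 350 bases long in mm10, lie between coding exons of the main transcripts, and all begin with GT and end with AG. The introns kept in Dusp1-203 and Dusp2-202 follow the second exon of each gene's main transcript, and the last 10 exon bases before them were identical at 8 positions.

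**Figure D3:**
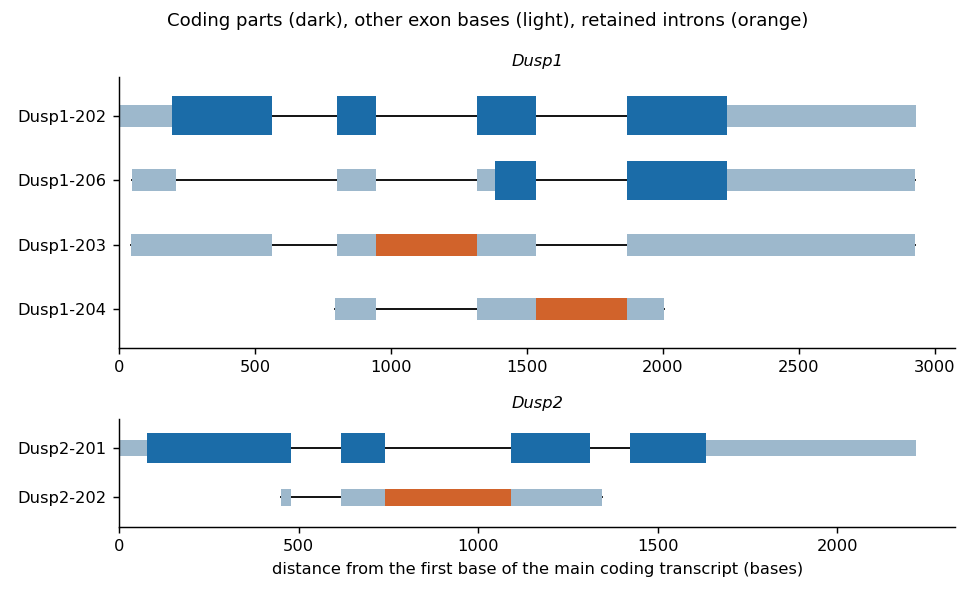
Transcripts of Dusp1 and Dusp2 drawn to scale by distance in bases from the first base of the main coding transcript, with coding parts in dark blue, other exon bases in light blue, introns as lines and retained introns in orange. The retained introns are 369 and 334 bases long in Dusp1 and 350 bases in Dusp2, and Dusp1-206 lacks part of the first exon.

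In Dusp1, retained-intron transcripts made up 57.3% and 64.0% of the gene's TPM (60.7% ± 4.71). Dusp1-203 had 27.1% and 29.8%, and Dusp1-204 had 30.2% and 34.2%. Both libraries therefore had over 50% of Dusp1 TPM assigned to transcripts annotated with a retained intron, and kallisto gave 63.8% and 66.0%. Over 5524 detected genes with such a transcript, 20.4% were above 50%, and the median share was 30.9%.

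In Dusp2, the retained-intron transcript had 38.2% and 47.7% of TPM (43.0% ± 6.75), with 40.9% and 46.1% by kallisto. Replicate 2 was the higher library for both genes. Dusp2-202 is 756 bases long and the coding Dusp2-201 is 1617, so the share in reads was lower than in TPM: 22.5% on average for Dusp2, and 56.2% for Dusp1. In Dusp16 the retained-intron transcript was listed at 0 by RSEM, and kallisto gave it 6.05% and 3.36%. These shares rest on transcript models that also differ at their ends, and the tables hold no count of reads over the introns themselves. In nuclear or nucleoplasmic RNA, reads from unspliced RNA in these introns cannot be told apart from reads of the retained-intron transcripts. The shares are therefore not a measure of finished retained-intron RNA.

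The coding transcripts of Dusp1 also differed between libraries. Dusp1-202, which encodes the full-length enzyme over 1101 coding bases, had 34.3% of TPM in replicate 1 and 8.40% in replicate 2. Dusp1-206, which lacks part of the first exon and has 522 annotated coding bases that keep the active site, had 8.38% and 27.6%. The 2 transcripts thus changed places, in the same direction by kallisto, where Dusp1-202 went from 34% to 15.6% and Dusp1-206 from 0.455% to 15.6%. In reads, RSEM gave Dusp1-202 1318 and 137, and Dusp1-206 249 and 350. Their sum was steadier, since all transcripts coding for the active site made up 42.7% and 36.0% of Dusp1 TPM.

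Dusp3 showed a larger exchange between its main transcripts, which start at different first exons. Dusp3-201, with 555 coding bases, had 39.2% and 16.8% of TPM. Dusp3-206, with 351 coding bases, had 29.0% and 80.9%. Replicate 2 was thus dominated by Dusp3-206, and kallisto gave it 34.6% and 72.0%. Both keep the active site. Transcripts of Dusp3 that code without it made up 26.7% and 2.25%, most of it in replicate 1 on Dusp3-205, a transcript of 391 bases with 18.1 reads. Kallisto gave these transcripts 37.3% and 23.4%.

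Dusp16 and Dusp22 each have a shorter coding transcript without the active site. Dusp16-204, which ends in an exon at chr6:134737496-134739975 and has 618 coding bases against 1980 in Dusp16-201, had 27.1% and 42.0% of TPM (34.6% ± 10.6). Its level was 3.49 and 8.15 TPM, while Dusp16-201 was at 5.36 and 5.87 TPM. Dusp22-203, with 270 coding bases against 615 in Dusp22-202, had 19.0% and 32.4% (25.7% ± 9.44). The last exon of each begins as an exon of the longer transcript and runs on into bases that are intron there. Neither transcript is among the retained-intron transcripts above. Reads from unspliced RNA in those bases cannot be told apart from reads of these transcripts. For both genes replicate 2 was the higher library on RSEM values, and kallisto gave 19.6% and 28.9% for Dusp16-204 and 17.4% and 18.6% for Dusp22-203. In Dusp16, transcripts that keep the active site held 69.6% and 57.3% by RSEM and 39.6% and 34% by kallisto, which placed 21.5% and 20.7% on Dusp16-205, a processed transcript of 553 bases listed at 0 by RSEM.

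**Figure D4:**
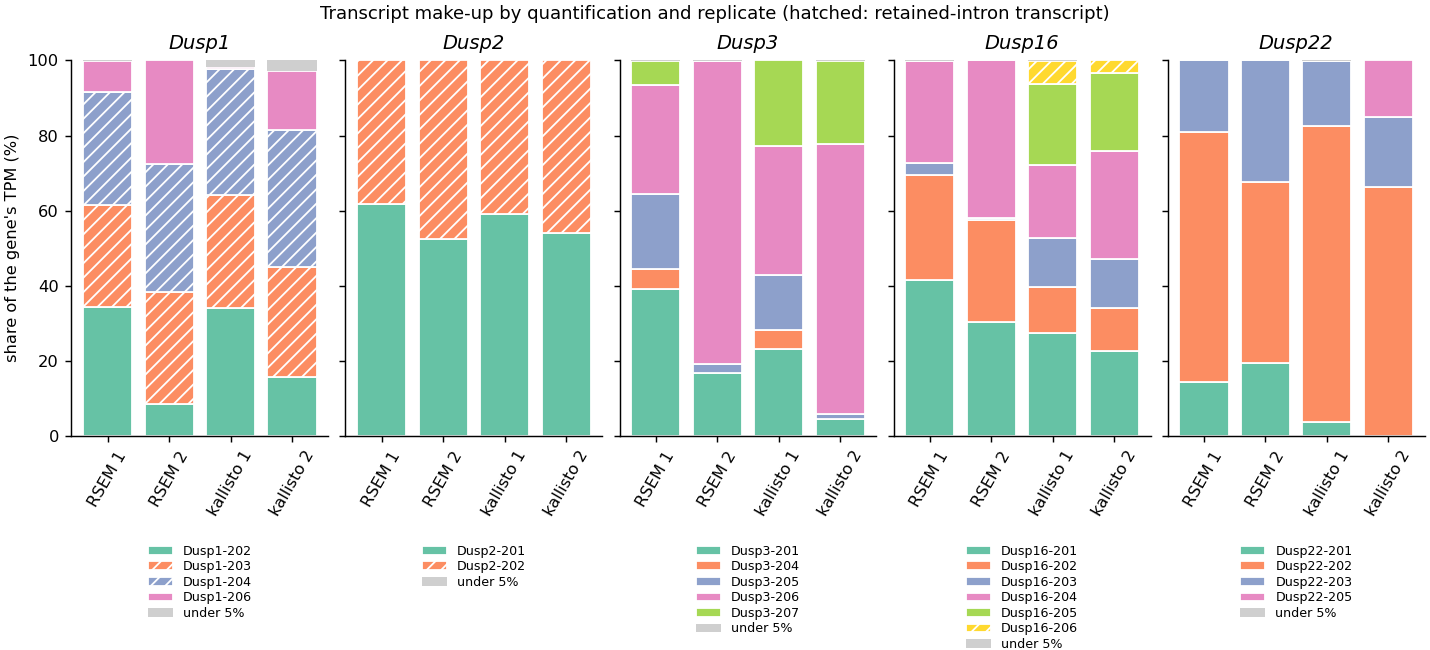
Share of each gene's TPM (percent) on its transcripts for Dusp1, Dusp2, Dusp3, Dusp16 and Dusp22, with a bar for each quantification and replicate, hatching for retained-intron transcripts and grey for transcripts under 5% in every bar. Dusp1-202 has 34.3% in RSEM replicate 1 and 8.40% in replicate 2, and Dusp3-206 makes up 80.9% of replicate 2.

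The remaining genes had few reads or a simple make-up. Dusp6-201 had 56.9% and 55.0% of Dusp6 TPM and Dusp6-204 22.2% and 45%, on 51.4 and 22.2 reads and 16.7 and 14.8 reads. Kallisto placed 53.7% and 54.3% of Dusp6 on processed transcripts, against 20.8% and 0% by RSEM, so the make-up of Dusp6 was not settled at this depth. Dusp10-201 held 100% of Dusp10 in both libraries.

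Promoter sequence, from 250 bases before to 50 after the annotated start, was at hand for 9 of the 10 genes from RefSeq (GRCm38.p6). Searched on both strands were TGACGTCA (the cAMP response element), TGANTCA (AP-1), TTCNNNGAA (STAT), TATAAA, the NF-kB consensus and the CArG box bound by serum response factor. The stretches of Dusp1 and Dusp5 are shown because each holds the least common of these motifs, with the matches in capitals.
Dusp1, chr17:26508578-26508657, minus strand: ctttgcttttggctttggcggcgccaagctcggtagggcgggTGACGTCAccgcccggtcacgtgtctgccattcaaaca
Dusp5, chr19:53529027-53529106, plus strand: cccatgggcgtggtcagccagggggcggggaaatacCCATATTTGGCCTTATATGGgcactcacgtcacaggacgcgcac
Of 32851 promoters 1.79% held a cAMP response element, and among the 9 it was found in Dusp1 alone, 143 bases before the start. A CArG box was in 1.63% of promoters, and Dusp5 alone among the 9 had it, as 2 adjacent matches 82 and 72 bases before the start. Dusp22 had 2 overlapping matches to the NF-kB consensus, which 8.46% of promoters held. None of the 9 windows held AP-1 (7.81% of promoters), STAT (8.30%) or TATAAA (13.6%). All 9 were richer in GC, at 57.3% to 79%, and in CpG, at 19 to 49, than the median promoter at 52.7% and 7. A match is a description of the letters and was not linked to any level measured here.

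Other genes overlap 5 of the 10 on the opposite strand, and the strandedness of the libraries was not given in the sources used here, so reads in shared exons cannot be told apart. Over Dusp16, the antisense gene Gm36328 was at 2.23 and 5.81 TPM from 23 and 32 reads. It lies inside an intron and shares no annotated exon base with Dusp16. Ergic1 overlaps the far end of the Dusp1 annotation by 640 bases and was at 4.83 and 10.8 TPM. Gm20659, within the last exon of Dusp3, was at 1.93 and 0.590 TPM from 36 and 6 reads. Cfap97d1, a coding gene, overlaps Dusp3 by 2735 bases. It was listed at 0 by RSEM and at 1.57 and 1.18 TPM by kallisto, and which exon bases it shares with Dusp3 was not tested. Ergic1 had 457 and 367 reads, against 3207 and 1260 for Dusp1, and how many Ergic1 reads fall in the shared bases was not tested. Among the Dusp1 transcripts, only Dusp1-201 and Dusp1-205 have exon bases there, and RSEM listed both at 0. Kallisto gave Dusp1-201 0.830% and 1.45% of Dusp1 TPM, and Dusp1-205 0.900% and 1.37%. The Dusp1 transcripts with RSEM reads lie within chr17:26505590-26508519. Dusp16 had 2477 and 1910 reads and Dusp3 1439 and 921. The genes opposite Dusp5 and Dusp10 had at most 5 reads.

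The MAP kinase cascade around the phosphatases was broadly present. Of 13 MAP kinases 7 were detected, among them Mapk6 (ERK3) at 31.5 and 36.2 TPM and Mapk14 (p38α) at 11.7 and 16.8. Mapk4 was listed at 0 by RSEM and at 0.207 and 0.234 TPM by kallisto. Dusp2 and Dusp1 thus lay above the level of every MAP kinase in replicate 1, and Dusp1 was slightly below Mapk6 in replicate 2. By kallisto, Mapk6 at 22.4 and 25.1 TPM lay above both phosphatases in both libraries. In this list Mapk11 and Mapk12 were over 2-fold higher in replicate 2, on 55 and 78 and on 8 and 12 reads.

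Of 7 MAP2 kinases 6 were detected, with Map2k1 at 20.4 and 15.8 TPM, Map2k2 at 16.7 and 13.8, and Map2k7 at 9.35 and 10.9, and with Map2k6 lowest at 0.200 and 0.05. All 12 MAP3 kinases were detected, from Map3k8 (Tpl2, the kinase that links Toll-like receptors to ERK) at 22.3 and 28.9 TPM and Araf at 15.4 and 18.6 down to Map3k4 at 1.10 and 1.60. All 9 kinases activated by MAP kinases were detected, with Mapkapk2, the p38 target MK2, at 73.3 and 61.6 TPM, Mknk1 at 23.1 and 20.9 and Mapkapk3 at 12.9 and 21.6, and with Rps6ka5 lowest at 3.18 and 8.07. No gene of these 3 lists passed 2-fold between the libraries.

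Other brakes on the pathway were detected in part, with 4 of 8 other feedback inhibitors and 5 of 8 other phosphatases that act on MAP kinases. Spred1, an inhibitor of Ras-ERK signalling, was at 50.6 and 48.4 TPM, Rasa2 at 4.02 and 7.74, Spred2 at 2.56 and 5.68, and Spry4 at 0.0100 and 0. Ppm1b was at 16.6 and 17.5 TPM, Ppp2ca at 12.8 and 16.3 and Ppm1a at 13.4 and 14.2. Ptprr was listed at 0 by RSEM and at 0.349 and 1.13 TPM by kallisto. Neither list had a gene past 2-fold.

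Of 16 further genes with Dusp and Styx names 2 were detected. Dusp11, a phosphatase that acts on RNA, was at 42.6 and 49.6 TPM, and the pseudophosphatase Styx was at 1.98 and 5.55. Dusp12 was at 0.940 and 2.48 TPM, and 3 genes of the list, Dusp21, Dusp26 and Styxl1, were listed at 0 in both libraries by RSEM. Kallisto gave Styxl1 0.414 and 1.25 TPM. Of the 8 tested, 2 were over 2-fold higher in replicate 2 (Styx and Dusp12) and 2 over 2-fold lower (Dusp8 and Dusp28). The median of mean TPM was 0.188 for these 16 genes and 5.36 for the 10 genes described here. The 16 were grouped by name and not by substrate, so these medians do not compare MAP kinase phosphatases with other enzymes.

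Of 14 immediate-early target genes of the pathway 11 were detected. Zfp36, an mRNA decay factor, was at 83.1 and 66.8 TPM, Junb at 89.8 and 56.4 and Ier3 at 16.7 and 16.8. Fosl1 was listed at 0 by RSEM. The median log2 ratio of the list between the libraries was −0.44, with 10 of the 13 tested lower in replicate 2. Jun and Junb were past 2-fold lower (−1.29 and −1.02), and Fosb and Nr4a1 past 2-fold higher (2.79 and 1.45). The log2 ratios of Dusp1 and Dusp2, −0.79 and −0.56, were smaller than those of Jun and Junb.

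**Figure D5:**
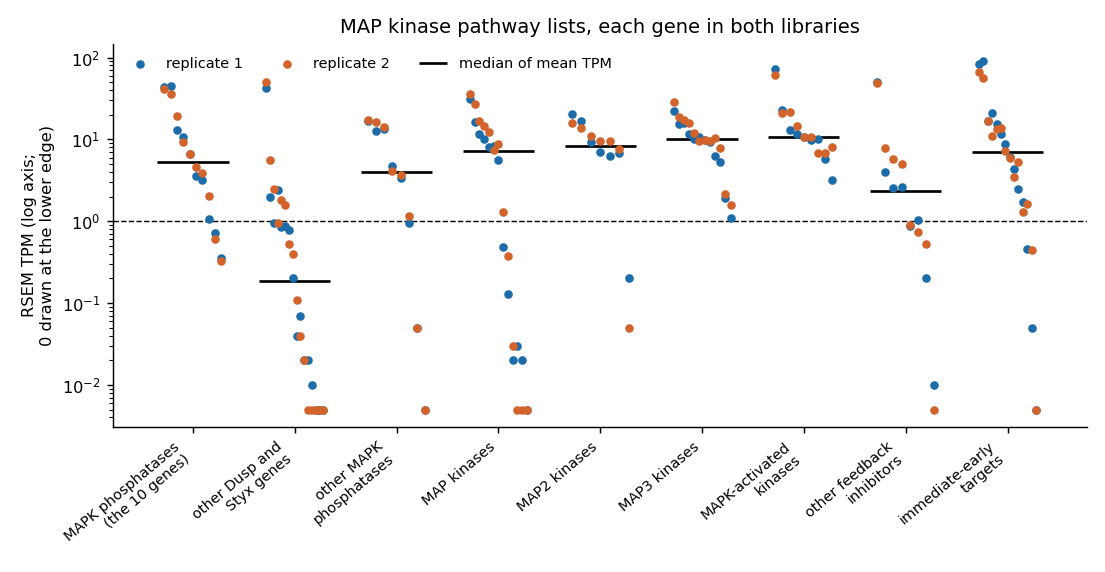
RSEM TPM on a log axis of each gene of the 9 lists in replicate 1 (blue) and replicate 2 (orange), with values of 0 drawn at the lower edge, a bar at the median of mean TPM and a dashed line at 1 TPM. The median is 5.36 TPM for the 10 genes described here and 0.188 TPM for the 16 other Dusp and Styx genes, which were grouped by name.

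The 2 libraries held 29400104 and 17789543 reads on genes, so that 3 reads correspond to 0.102 and 0.169 CPM (counts scaled to library size). They differed by far more than sampling noise, with a chi-square of 156 per gene over 14831 genes. The cells matched their label: all 10 macrophage markers were detected, with a median of 103 TPM, led by Lyz2 at 699 and 1099, Adgre1 at 377 and 521 and Csf1r at 135 and 172. None of 8 neutrophil, 7 dendritic cell, 8 lymphoid and 7 stromal or endothelial markers was detected, and their summed TPM was at most 2.17 in any list and library. Ly6g, Elane, Cd3e and Pdgfra were listed at 0 by RSEM. In bulk RNA, fewer cells of a type and less RNA per cell cannot be told apart.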

How the data were processed

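The 2 libraries of ribosomal RNA-depleted nucleoplasmic RNA were analysed. Per the file headers, the deposited files are RSEM gene and transcript tables, with expected counts, TPM, credibility bounds of TPM (read as a signal) and the percent of a gene's TPM on each transcript, and kallisto tables with estimated counts and TPM. The labels name mm10; the identifiers match GENCODE M21. For aligner, tool versions and strandedness: not given in the sources used here. From the deposited expected counts, rounded to whole numbers, rows that name no gene (0.766% and 0.272% of counts) were left out. TMM factors (0.944 and 1.06, edgeR 4.0.16 in R 4.3.3) came from genes with a mean count of 10 or more, and log2 ratios used a prior count of 0.5. Size factors of DESeq2 1.42.0 were an alternative. Kallisto was set beside RSEM with a pseudocount of 0.1 TPM. The ratio and its interval were tested on simulated counts with sampling noise only, with changes set in well-counted genes. These libraries differed by more than sampling noise, which that test does not cover. Nor does it cover changes at counts as low as those of Dusp6 and Dusp10. Depth was 29400104 and 17789543 counts. Coding sequences were read from GENCODE transcripts, since a protein table was not used here.

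The members and gene lists were chosen with earlier results of these data known. Named were all 10 genes whatever their value and, of each other list, the 3 of highest mean TPM and the lowest, except a few genes that are not reported here. Genes past 2-fold in a list, single transcripts and overlapping genes were named after their values were seen. Alternatives were kallisto values, rescaled TPM, other limits, scalings and prior counts, and each replicate alone. The tables include 86 genes without kallisto rows.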

Additional observations from a re-analysis of the deposited data

How the results depend on the processing

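Of the 10 genes, 8 were detected by RSEM TPM. The count was 7 by kallisto TPM, 9 after rescaling to one total over coding genes and lncRNAs, 10 by TMM-scaled CPM, 9 at 0.5 TPM, 5 at 5 TPM, and 8 with either replicate alone. None of those tested passed 2-fold under any of the 7 alternatives for the ratio. Of all genes tested, 8.37% (mean count of 50 or more) to 32.1% (no filter on counts) did. The median log2 ratio stayed below 0, from −0.36 with DESeq2 size factors to −0.04 with TPM. Its difference from the median of all genes tested ran from −0.38 with TPM to −0.25 at a mean count of 50 or more. Single ratios whose counting interval left out 0 changed sign for Dusp16, to −0.09 with kallisto counts, and for Dusp4 and Dusp7, to 0.01 and 0.32 with TPM. Of those whose interval included 0, Dusp22 turned to 0.29 with TPM and 0.02 with kallisto counts, and Dusp3 to 0.08 with library totals. The median retained-intron share over Dusp1, Dusp2 and Dusp16 was 43.0% of TPM, 22.5% of expected counts, and 38.2% to 47.7% with either replicate alone. The median log2 ratio of kallisto to RSEM was −0.07, and −0.17 to 0.02 with either replicate alone, so its sign rested on 1 library; this check, the active-site shares and the single-transcript shares were added after seeing the data. The causes were not tested. No paired analysis was possible because there was 1 group. Depth limits Dusp6 and Dusp10, with 72 and 37 and with 45 and 22 reads.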
